A study of Mus musculus with 64 samples.

Results

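The genes that make, move and sense bile acids were examined in mouse liver. The set held Cyp7a1, Cyp8b1, Cyp27a1, Cyp7b1, Cyp2c70, Baat, Slc10a1, Abcb11, Nr1h4 and Nr0b2. They were chosen by gene symbol for their known roles, with earlier results of these data known, and make up 10 of the 53008 gene names in the count table. Each symbol was found once and stood for 1 Ensembl gene, and all 10 passed the filter on low counts, with 17318 genes tested.

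The RNA came from whole liver after 16 weeks on a high-fat diet (HFD) or on chow. HuMgat2 mice are humanized for MOGAT2, a monoacylglycerol acyltransferase that rebuilds fat from monoacylglycerol, and express the human gene, while WT mice carry the mouse gene. The groups were HuMgat2 on HFD, WT on HFD, HuMgat2 on chow and WT on chow, with 4 libraries each and 16 in all. Strain, sex, age and the make-up of the diets are not given in the sources used here, and the labels do not say whether each library is 1 animal, so p-values measure the spread between libraries.

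Hepatocytes turn cholesterol into bile acids by a classic route that starts with Cyp7a1 and an alternative route that starts with Cyp27a1 and continues with Cyp7b1. Cyp8b1 sets how much cholic acid is made, and Cyp2c70 makes the muricholic acids that are typical of mouse bile. Bile acids are joined to taurine by Baat, secreted into bile by Abcb11 and taken back up from portal blood by Slc10a1. They activate the nuclear receptor FXR, encoded by Nr1h4, which induces Abcb11 and the repressor SHP, encoded by Nr0b2, and SHP in turn holds down Cyp7a1 and Cyp8b1.

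Total gene counts were 12422647 to 25812129 per library. As a check of the tissue label, 8 of 8 hepatocyte markers were present, with a summed level of 43999.2 to 87902.7 CPM (counts scaled to a common library size). Mouse Mogat2 had 0 to 2 counts per HuMgat2 HFD library, 2 to 12 per WT HFD library, 0 to 1 per HuMgat2 chow library and 0 to 2 per WT chow library, too few to check the genotype labels. Library 4 of WT HFD stood apart from the rest. It had the fewest counts (12422647), the lowest summed hepatocyte markers, a share of 0.85% for Alb, the albumin gene, against 3.259% to 6.018% in the other libraries, and the lowest quality weight (0.231, with 0.635 to 2.09 in the others). Results that use it are given with it, and many of them also without it.

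Cyp8b1 and Cyp2c70, the enzymes that set which bile acids are made, differed between the genotypes on HFD in opposite directions. In HuMgat2 liver on HFD, 5 members were called lower than on chow at an adjusted p below 0.05, namely Cyp27a1, Cyp7b1, Cyp2c70, Abcb11 and Nr0b2, where 6.4% of all genes tested were called lower. None of the members was called higher with edgeR, where 7.56% of all genes were; 3 were higher at an unadjusted p below 0.05, DESeq2 called 0, limma voom with quality weights called 2, and 1 (Cyp8b1) was called without WT HFD library 4. In WT liver on HFD, Cyp7a1 and Cyp2c70 were called higher than on chow, against a background of 8.37%, and Abcb11 and Baat were called lower, against 6.74%. The median log2 change of the 10 members was -0.53 in HuMgat2 and -0.22 in WT, and that of all genes tested was -0.01 in HuMgat2 and 0.03 in WT.

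Between genotypes on HFD, Cyp8b1 was called higher in HuMgat2 (7.21% of all genes were) and Cyp27a1 and Cyp2c70 were called lower (7.56% of all genes were). Without WT HFD library 4, Cyp7b1 joined those called lower. In the same comparison 3 of 8 hepatocyte markers were called lower in HuMgat2 (median log2 -0.67), while Alb and Ttr were higher without being called. Of 5 stellate cell markers, 3 were called higher (median 0.54). The part of these markers in the differences of Cyp8b1, Cyp27a1 and Cyp2c70 was not tested. The median log2 difference of the members was -0.17 on HFD and -0.03 on chow, with -0.04 and 0 for all genes. On chow 0 members were called higher or lower with edgeR, and 0.266% and 0.243% of all genes were; at an unadjusted p below 0.05 there were 2 higher and 0 lower, and DESeq2 and limma voom called 0. A test of the interaction asks whether the diet change differs between genotypes. It called Cyp27a1 and Cyp2c70, both with a lower diet change in HuMgat2, against 2.26% of all genes in that direction. In the other direction it called 0 members, against 2.61% of all genes; 1 was past an unadjusted p of 0.05, DESeq2 and limma voom called 0, and Cyp8b1 was called without WT HFD library 4. The comparisons share libraries: the diet comparison in HuMgat2 and the genotype comparison on HFD both use the HuMgat2 HFD libraries, so their values are not independent.

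The 4 libraries of each group lay apart without overlap for 6 members between HFD and chow in HuMgat2, where this held for 21% of all genes, and for 4 members in WT, where it held for 18.2%. Between genotypes it held for 4 members on HFD, with 21.2% of all genes, and for 1 member on chow, with 6.62%.

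**Figure D1:**
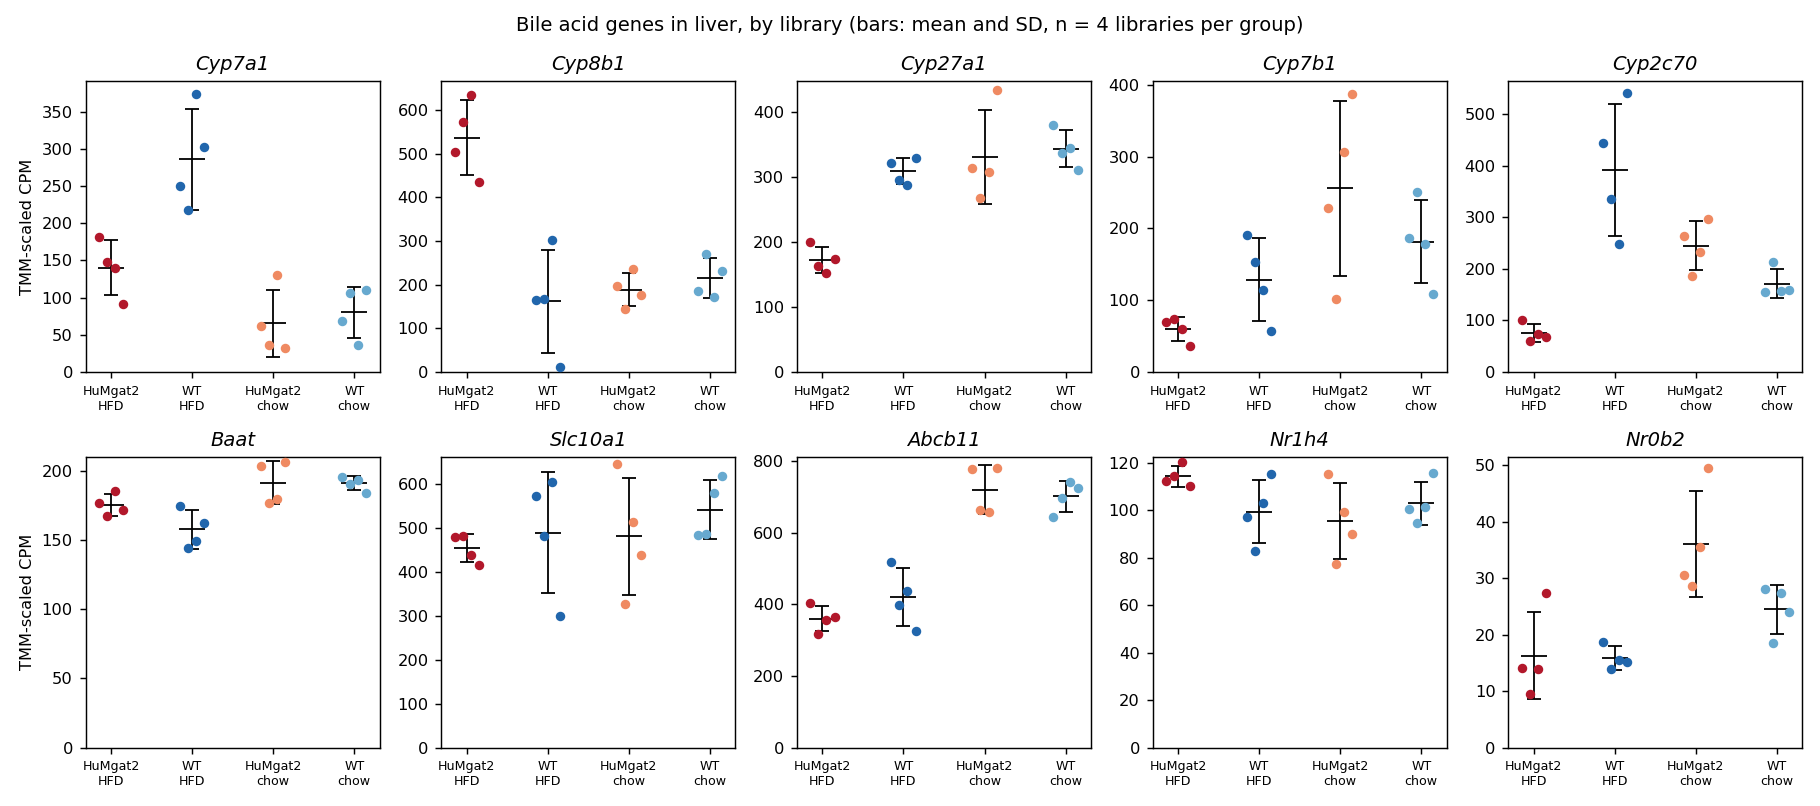
TMM-scaled CPM (vertical axis, from 0) of the 10 genes in each of the 16 libraries, with HuMgat2 HFD, WT HFD, HuMgat2 chow and WT chow from left to right; points are libraries and bars are the mean and SD. Cyp8b1 stood at 435.9 to 635.5 CPM in HuMgat2 HFD and at 11.4 to 301.9 CPM in WT HFD, while Cyp2c70 stood at 60.4 to 100.1 CPM and 247.3 to 539.6 CPM in the same groups.

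**Figure D2:**
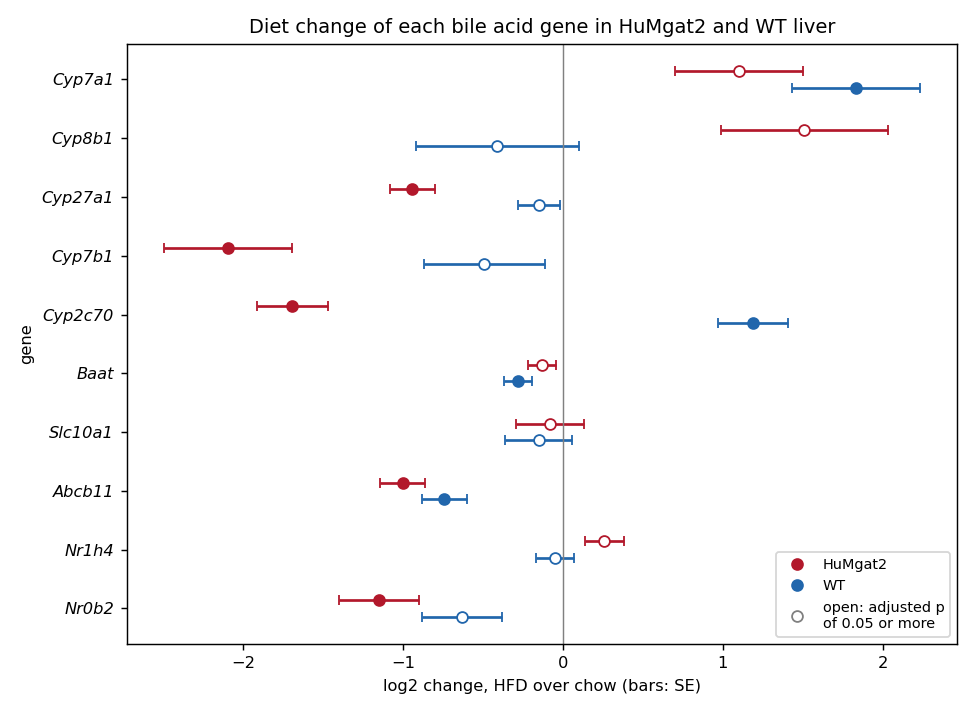
Log2 change between HFD and chow (horizontal axis) of each gene in HuMgat2 (red) and WT (blue); bars are standard errors and open symbols did not pass an adjusted p of 0.05. Cyp2c70 lies on opposite sides of 0 in the genotypes, at -1.69 in HuMgat2 and 1.19 in WT, and Abcb11 lies left of 0 in both.

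Cyp2c70, on chromosome 19 (GRCm39, 40141797 to 40175777, minus strand), moved in opposite directions with diet in the 2 genotypes. In HuMgat2 liver it had 100.1, 60.4, 73.6 and 68.8 CPM on HFD and 263.4, 185.3, 231.9 and 296.5 CPM on chow. In WT liver it had 443.4, 334.5, 247.3 and 539.6 CPM on HFD and 155.4, 212.5, 157.8 and 159.7 CPM on chow. Every HuMgat2 HFD library was below every library of the other groups, and every WT HFD library was above every WT chow library. It was 3.22-fold lower on HFD than on chow in HuMgat2 (log2 change -1.69 ± 0.22 SE, adjusted p = 0.0001) and 2.28-fold higher in WT (1.19 ± 0.22, adjusted p = 0.00205; 1.0 without library 4, adjusted p = 0.00305). On HFD, HuMgat2 liver had 5.16-fold less than WT liver (log2 -2.37 ± 0.23, adjusted p = 6e-06; -2.17 without library 4, adjusted p = 3.3e-06), with means of 75.7 ± 17.1 and 391.2 ± 127 CPM (SD, n = 4 each). The interaction was -2.88 ± 0.31 on the log2 scale (adjusted p = 8.3e-05) and -2.68 without WT HFD library 4 (adjusted p = 2.7e-05). On chow the genotype difference did not pass (log2 0.51, 95% interval 0.09 to 0.93, adjusted p = 0.396).

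Cyp8b1, the enzyme that commits intermediates to cholic acid, lies on chromosome 9 (GRCm39, 121743422 to 121745371, minus strand). It had 503.6, 573.2, 635.5 and 435.9 CPM in HuMgat2 HFD and 166.0, 167.1, 301.9 and 11.4 CPM in WT HFD. On chow it had 196.9, 144.8, 236.1 and 176.1 CPM in HuMgat2 and 184.7, 271.5, 171.3 and 231.6 CPM in WT. The HuMgat2 HFD libraries lay above all 12 others, and WT HFD library 4 was the lowest of the 16. In HuMgat2 on HFD it was 3.32-fold higher than in WT on HFD (log2 1.73 ± 0.53, adjusted p = 0.0368), and 1.34 on the log2 scale without WT HFD library 4 (adjusted p = 0.000723). This call was lost, at adjusted p of 0.0521 to 0.0771, when any 1 of the 4 HuMgat2 HFD libraries or WT HFD library 1 or 2 was left out, with library 4 kept in, and also when only the 2 groups were fitted (adjusted p = 0.123). Against chow in HuMgat2 the log2 difference was 1.51 ± 0.52 (adjusted p = 0.0657), and it passed at the same size without WT HFD library 4 (adjusted p = 6.63e-05) or library 3 (adjusted p = 0.049). It also passed with all libraries when only the 2 groups were fitted (adjusted p = 0.00015), with no filter on low counts (adjusted p = 0.0268) and with limma voom (adjusted p = 0.0166). Over the fits that left out 1 library, its adjusted p was 6.63e-05 to 0.134. In WT the diet difference was -0.41 (95% interval -1.42 to 0.60, adjusted p = 0.653), and -0.02 without library 4. The interaction was 1.92 ± 0.73 (adjusted p = 0.161), and 1.53 without library 4 (adjusted p = 0.00473).

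Levels of different genes were compared as CPM per kilobase of deposited gene length. By this measure Cyp8b1 made up 31.0 ± 3.7% of the summed level of the 10 members in HuMgat2 HFD and 8.1 ± 5.8% in WT HFD (SD, n = 4 each). Its share was 9.4 ± 1.4% in HuMgat2 chow and 10.9 ± 2.0% in WT chow, where Slc10a1 held the largest share, 21.0 ± 3.9% and 24.6 ± 3.2%. The ratio of Cyp8b1 to Cyp2c70 per kilobase was 5.11, 6.43, 8.77 and 9.64 in the HuMgat2 HFD libraries and 0.0214, 0.38, 0.507 and 1.24 in the WT HFD libraries, the lowest being library 4. On chow it was 0.603 to 1.03 in HuMgat2 and 1.1 to 1.47 in WT. The lowest HuMgat2 HFD value was above the highest of any other group. These ratios were not tested, since they join measures already tested.

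**Figure D3:**
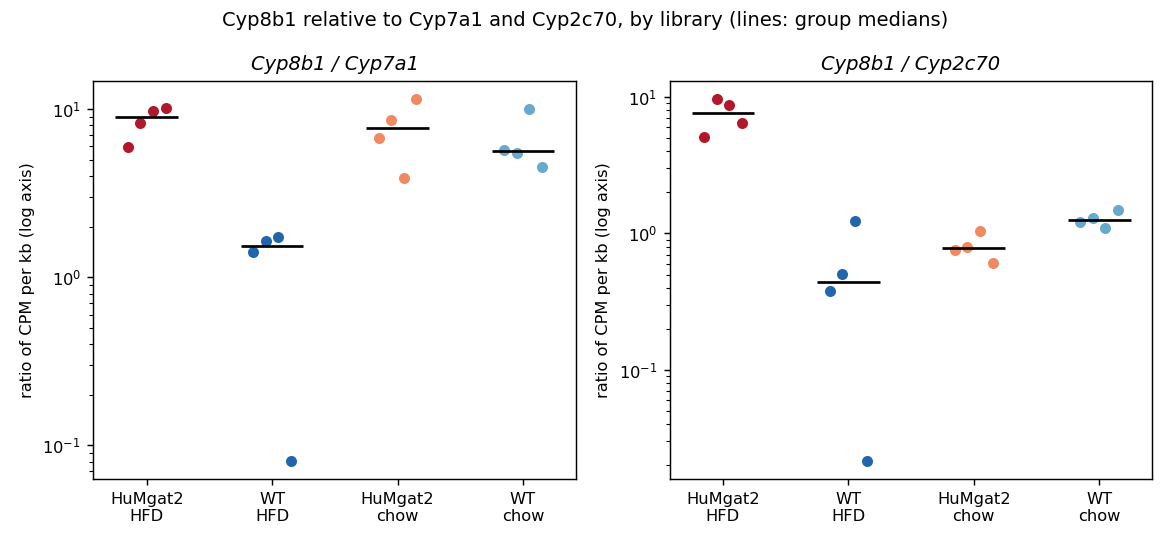
Ratio of CPM per kilobase (log axis) of Cyp8b1 to Cyp7a1 (left) and of Cyp8b1 to Cyp2c70 (right) in each library, with lines at the group medians. The Cyp8b1 to Cyp2c70 ratio has a median of 7.6 in HuMgat2 HFD, 0.444 in WT HFD, 0.777 in HuMgat2 chow and 1.25 in WT chow.

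Promoter sequence from RefSeq (GRCm38.p6, an older build than the count table's GRCm39) was matched for 7 of the 10 members. The table gives 250 bases before to 50 bases after each start. The stretches of Cyp8b1 and Cyp2c70 from 120 bases before the start up to the start are printed here because these genes differed between genotypes in opposite directions on HFD; both lie on minus strands and are written 5′ to 3′ along the gene. Capitals mark the letters CAAAGTCCA, a form of the direct-repeat site known for HNF4A.
Cyp8b1 (chr9:121916306-121916425): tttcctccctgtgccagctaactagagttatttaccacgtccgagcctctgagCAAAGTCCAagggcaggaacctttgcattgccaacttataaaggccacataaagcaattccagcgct
Cyp2c70 (chr19:40187287-40187406): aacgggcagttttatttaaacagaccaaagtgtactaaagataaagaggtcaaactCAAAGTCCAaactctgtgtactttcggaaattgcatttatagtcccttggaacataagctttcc
The match began 67 bases before the start in Cyp8b1 and 64 bases before it in Cyp2c70, on the gene's own strand. Searched on both strands, these letters were in 0.475% of all 32851 promoters, and in 2 of the 7 members. The motif was picked after the sequences had been read, and a match is a description of letters, not of a bound site.

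Cyp7a1, the rate-limiting enzyme of the classic route (chromosome 4, 6265612 to 6275633, minus strand), was higher on HFD in WT liver. It had 250.4, 217.4, 373.3 and 302.7 CPM in WT HFD and 69.1, 105.9, 36.6 and 110.0 CPM in WT chow, with no overlap. In HuMgat2 it had 181.4, 147.5, 140.1 and 91.2 CPM on HFD and 62.4, 35.8, 130.3 and 32.9 CPM on chow, where library 15 reached into the HFD range. The rise in WT was 3.56-fold (log2 1.83 ± 0.40, adjusted p = 0.00638; 1.80 without library 4, adjusted p = 0.00744). The difference in HuMgat2 was 2.15-fold (log2 1.10 ± 0.40) and did not pass (adjusted p = 0.0753); without HuMgat2 chow library 15 it was 1.68 and passed (adjusted p = 0.00645), and it passed with no filter (adjusted p = 0.0321) and with limma voom (adjusted p = 0.0339). All 4 HuMgat2 HFD libraries were below all 4 WT HFD libraries, with means of 140.1 ± 37.2 and 285.9 ± 68.0 CPM, but the difference of -1.03 ± 0.39 missed the threshold (adjusted p = 0.0863; 0.0373 without HuMgat2 chow library 15, 0.0236 with only the 2 groups and 0.0334 with limma voom). Without WT HFD library 4 this genotype difference was -1.0 (adjusted p = 0.118). Over the fits that left out 1 library, its adjusted p was 0.0373 to 0.2. The adjusted p of the HuMgat2 diet difference was 0.00645 to 0.18 over the same fits. The interaction of -0.73 (95% interval -1.81 to 0.36, adjusted p = 0.523) did not show that the diet change differed between genotypes.

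Per kilobase, Cyp8b1 exceeded Cyp7a1 by a median ratio of 9.01 in HuMgat2 HFD and 1.53 in WT HFD. On chow the median ratio was 7.71 in HuMgat2 and 5.6 in WT. The WT HFD libraries ran from 0.0803 to 1.73 and did not overlap with those of any other group, the lowest of which was 3.88.

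Both genes of the alternative route, Cyp27a1 and Cyp7b1, fell on HFD in HuMgat2 liver. Cyp27a1, the mitochondrial sterol hydroxylase that starts it (chromosome 1, 74752733 to 74777051, plus strand), had 199.9, 163.3, 152.7 and 173.0 CPM in HuMgat2 HFD and 321.3, 295.1, 287.6 and 328.7 CPM in WT HFD. On chow it had 313.5, 266.7, 307.4 and 432.9 CPM in HuMgat2 and 380.1, 336.7, 343.6 and 310.8 CPM in WT. The HuMgat2 HFD libraries were below the other 12, which overlapped with each other. Cyp27a1 fell 1.92-fold on HFD in HuMgat2 (log2 -0.94 ± 0.14, adjusted p = 0.000225) and was 1.79-fold lower than in WT on HFD (-0.84 ± 0.14, adjusted p = 0.000684; -0.81 without WT HFD library 4, adjusted p = 0.000892). In WT the diet difference was -0.15 (95% interval -0.42 to 0.11, adjusted p = 0.489). The interaction was -0.79 ± 0.19 (adjusted p = 0.0243); it was -0.75 at the same adjusted p without WT HFD library 4, and it missed the threshold (adjusted p of 0.0507 to 0.0616) when HuMgat2 HFD library 10 or 11 or WT chow library 6, 7 or 8 was left out.

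Cyp7b1, the oxysterol hydroxylase that acts after Cyp27a1 (chromosome 3, 18126114 to 18297502, minus strand), had 69.9, 73.7, 59.4 and 36.8 CPM in HuMgat2 HFD and 228.4, 101.4, 306.0 and 387.9 CPM in HuMgat2 chow. In WT it had 191.5, 152.9, 114.1 and 56.5 CPM on HFD and 186.5, 250.6, 178.9 and 109.4 CPM on chow. The HuMgat2 diet groups were apart and the WT diet groups overlapped. The fall in HuMgat2 was 4.27-fold (log2 -2.09 ± 0.40, adjusted p = 0.00204), while the WT difference was -0.49 (95% interval -1.24 to 0.25, adjusted p = 0.424). Against WT on HFD the difference was -1.10 ± 0.39 (adjusted p = 0.063), and it passed without WT HFD library 4 (-1.35, adjusted p = 0.0154) or HuMgat2 chow library 14 (-1.10, adjusted p = 0.0322), with no filter (adjusted p = 0.039) and with limma voom (adjusted p = 0.00853). The interaction was -1.60 ± 0.54 (adjusted p = 0.109), and it passed without the same libraries (-1.85, adjusted p = 0.0269, and -1.87, adjusted p = 0.0295) and with limma voom (-1.54, adjusted p = 0.0381). Over the fits that left out 1 library, the genotype difference on HFD ran from -1.35 to -0.85 (adjusted p of 0.0154 to 0.159). The interaction ran from -1.87 to -1.33 (adjusted p of 0.0269 to 0.198). An overlapping gene on the same strand had at most 73 counts in a library.

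Per kilobase, the ratio of Cyp7b1 to Cyp7a1 had a median of 0.797 in HuMgat2 HFD and 6.25 in HuMgat2 chow, and of 0.972 in WT HFD and 4.88 in WT chow. The HFD libraries of both genotypes ran from 0.36 to 1.47 and the chow libraries from 1.92 to 22.7, without overlap. The numerator was lower on HFD in HuMgat2, and the denominator was higher on HFD in WT.

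Baat, which joins bile acids to taurine (chromosome 4, 49489422 to 49506557, minus strand), differed between HFD and chow by at most 1.21-fold. It had 176.7, 167.0, 185.6 and 171.4 CPM in HuMgat2 HFD and 203.1, 176.4, 179.4 and 206.3 CPM in HuMgat2 chow. In WT it had 174.8, 143.9, 148.9 and 162.5 CPM on HFD and 195.5, 190.4, 193.6 and 183.8 CPM on chow, without overlap. The WT fall was 1.21-fold (log2 -0.28 ± 0.09, adjusted p = 0.0419; 0.039 without library 4), close to the threshold, and it was lost without any 1 of the 4 HuMgat2 HFD libraries, WT HFD library 2 or 3, or any 1 of the 4 WT chow libraries (adjusted p of 0.0528 to 0.113). It was also lost with no filter (adjusted p = 0.12) and with only the 2 groups (adjusted p = 0.0974). In HuMgat2 the difference was -0.13 (95% interval -0.30 to 0.04, adjusted p = 0.375).

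Of the 2 transporters, the exporter changed and the uptake carrier did not pass any test. Abcb11, the bile salt export pump (chromosome 2, 69068626 to 69172960, minus strand), had 402.6, 317.7, 355.8 and 364.7 CPM in HuMgat2 HFD and 777.7, 663.3, 657.9 and 781.0 CPM in HuMgat2 chow. In WT it had 519.0, 399.7, 438.3 and 326.5 CPM on HFD and 643.5, 698.0, 741.8 and 724.8 CPM on chow. All 8 HFD libraries were below all 8 chow libraries. The fall was 2.00-fold in HuMgat2 (log2 -1.0 ± 0.14, adjusted p = 0.000139) and 1.67-fold in WT (-0.74 ± 0.14, adjusted p = 0.00205; -0.63 without library 4, adjusted p = 0.00215). Between genotypes the difference was -0.22 on HFD (95% interval -0.49 to 0.04, adjusted p = 0.272; -0.29 and 0.035 with limma voom) and 0.04 on chow (adjusted p = 0.958), and the interaction was -0.26 (95% interval -0.63 to 0.11, adjusted p = 0.503). Without WT HFD library 4 the genotype difference on HFD was -0.33 (adjusted p = 0.0771) and the interaction was -0.36 (adjusted p = 0.226). The 2 genes that overlap Abcb11 lie on the opposite strand and had at most 176 and 50 counts in a library.

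Slc10a1, the sodium-dependent carrier NTCP that takes bile acids up from blood (chromosome 12, 80999957 to 81015479, minus strand), had 479.9, 481.7, 438.1 and 416.5 CPM in HuMgat2 HFD and 644.8, 327.1, 513.4 and 437.6 CPM in HuMgat2 chow. In WT it had 571.9, 481.5, 604.7 and 299.6 CPM on HFD and 484.6, 486.1, 578.7 and 618.6 CPM on chow. The diet groups overlapped in both genotypes, and the genotypes overlapped on both diets. Every HuMgat2 HFD library (at most 481.7 CPM) was just below every WT chow library (at least 484.6 CPM). WT HFD library 4 was the lowest of the 16. The diet difference was -0.08 in HuMgat2 (95% interval -0.49 to 0.32, adjusted p = 0.84) and -0.15 in WT (-0.55 to 0.26, adjusted p = 0.692), the last with the opposite sign (0.03) without library 4. On HFD the genotypes differed by -0.11 (95% interval -0.51 to 0.30, adjusted p = 0.764), and by -0.28 without WT HFD library 4 (adjusted p = 0.303).

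Nr1h4, the FXR gene, passed none of the tests, while Nr0b2, whose product SHP is induced by FXR, fell on HFD in HuMgat2. Nr1h4 (chromosome 10, 89290096 to 89369447, minus strand) had 112.2, 114.4, 120.3 and 110.2 CPM in HuMgat2 HFD and 115.3, 77.2, 99.1 and 89.9 CPM in HuMgat2 chow. In WT it had 96.9, 82.8, 102.9 and 115.0 CPM on HFD and 100.5, 94.4, 101.1 and 115.6 CPM on chow. All groups overlapped, and the diet difference was 0.26 in HuMgat2 (95% interval 0.03 to 0.49, adjusted p = 0.162) and -0.05 in WT (-0.28 to 0.18, adjusted p = 0.825).

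Nr0b2, an orphan receptor without a DNA-binding domain that represses other factors (chromosome 4, 133280687 to 133283847, plus strand), had 14.1, 9.56, 14.0 and 27.4 CPM in HuMgat2 HFD and 30.6, 28.6, 35.5 and 49.5 CPM in HuMgat2 chow. In WT it had 18.8, 14.0, 15.6 and 15.2 CPM on HFD and 28.2, 18.6, 27.4 and 24.0 CPM on chow. The HuMgat2 groups were apart, with HFD library 12 nearest to chow, and the WT groups overlapped. The fall in HuMgat2 was 2.22-fold (log2 -1.15 ± 0.25, adjusted p = 0.00574), and the WT difference was -0.63 ± 0.25 (adjusted p = 0.104; 0.0327 without HuMgat2 HFD library 12, 0.028 with only the 2 groups and 0.0423 with limma voom). Without WT HFD library 4 the WT difference was -0.61 (adjusted p = 0.149), and over the fits that left out 1 library its adjusted p was 0.0327 to 0.214. The interaction was -0.52 (95% interval -1.21 to 0.17, adjusted p = 0.464), so the diet change was not shown to differ between genotypes. On chow every HuMgat2 library was above every WT library, at means of 36.0 ± 9.42 and 24.5 ± 4.38 CPM, but the difference did not pass (log2 0.55 ± 0.25, adjusted p = 0.43).

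The same stretch of the Abcb11 promoter is printed because Abcb11 is the textbook FXR target whose message fell with diet in both genotypes. Capitals mark the best match to the inverted repeat AGGTCANTGACCT, the kind of site FXR is known to bind, with N any base.
Abcb11 (chr2:69342617-69342736): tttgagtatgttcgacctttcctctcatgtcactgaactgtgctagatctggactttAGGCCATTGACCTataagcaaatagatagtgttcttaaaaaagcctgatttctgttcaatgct
The match began 63 bases before the start and had 1 mismatch. With at most 1 mismatch, and on both strands, this repeat was in 0.0822% of all promoters and in 1 of the 7 members, and without a mismatch in 0.00913% and in 0 members. An arm of the repeat, AGGTCA, was in 16.3% of promoters and in 4 of the members (Abcb11, Nr1h4, Slc10a1 and Cyp2c70); in Abcb11 it lies within the printed repeat, and in Cyp2c70 it begins 74 bases before the start and does not overlap the capitals. No promoter entry was used for Cyp7a1, Cyp7b1 and Baat.

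Further genes of the pathway were taken from lists of synthesis, transport and sensing genes. Of all genes tested, 7.56% were called higher and 6.4% lower on HFD in HuMgat2, and 8.37% and 6.74% in WT. Between genotypes on HFD, 7.21% were called higher in HuMgat2 and 7.56% lower, and the interaction called 2.61% higher and 2.26% lower. Of 15 tested synthesis genes, 2 rose and 2 fell on HFD in HuMgat2, with a median log2 change of -0.01, against -0.01 for all genes; without WT HFD library 4, 3 rose and 6 fell. Cyp46a1, a cholesterol hydroxylase best known from brain, rose 5.2-fold, with 8.24 ± 1.43 CPM on HFD and 1.6 ± 0.475 CPM on chow (log2 2.38 ± 0.35, adjusted p = 0.000275). WT liver had 2.31 ± 1.27 CPM of Cyp46a1 on HFD and 3.91 ± 1.04 CPM on chow. The genotype difference on chow was -1.30 (adjusted p = 0.144). Hsd17b4, a peroxisomal enzyme of side-chain shortening, rose 1.53-fold (adjusted p = 0.00999). Sult2a8, a mouse liver bile acid sulfotransferase, fell 3.03-fold, with 194.0 ± 97.4 CPM on HFD and 587.9 ± 213 CPM on chow (adjusted p = 0.00892). In WT, where the median was -0.09, 1 of the 15 fell (2 rose and 1 fell without WT HFD library 4), namely Cyp39a1, an oxysterol hydroxylase (4.36-fold, with 5.92 ± 3.05 CPM on HFD and 26.5 ± 4.07 CPM on chow, adjusted p = 0.000101). Between genotypes on HFD, 4 were higher in HuMgat2 and 2 lower, and Cyp46a1 (log2 1.77), Cyp39a1 (1.15) and Amacr, a peroxisomal racemase (-0.44), had the smallest adjusted p (0.00232, 0.00764 and 0.00495). Without WT HFD library 4 these differences were 1.5, 0.92 and -0.44 (adjusted p = 0.000518, 0.00447 and 0.00697). The interaction called Cyp46a1 (3.08, adjusted p = 0.00156), Amacr (-0.54, adjusted p = 0.0245) and Cyp39a1 (1.41, adjusted p = 0.0298). Without WT HFD library 4 the interactions were 2.81, -0.54 and 1.19 (adjusted p = 0.00012, 0.0243 and 0.00957). Leaving out 1 library ended the Amacr interaction call in 5 cases (HuMgat2 HFD 9 and 10, WT chow 5, 6 and 8; adjusted p of 0.0508 to 0.0703), as did using no filter (0.104), and the Cyp39a1 one in 9 (HuMgat2 HFD 9 and 12, WT HFD 1 and 2, HuMgat2 chow 15 and 16, WT chow 5, 7 and 8; 0.0508 to 0.0652).

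Among 11 tested transport genes, 1 rose and 1 fell on HFD in HuMgat2 (1 and 2 without WT HFD library 4), with a median log2 change of 0.13. Of all genes, 7.56% were called higher and 6.4% lower. Slco1a1, an uptake carrier of organic anions and bile acids, fell 25.1-fold, with 6.08 to 46.7 CPM on HFD and 298.8 to 631.9 CPM on chow (log2 -4.65 ± 0.72, adjusted p = 0.000419). On HFD the HuMgat2 level was 19.0-fold below that of WT, which had 43.9 to 572.2 CPM (log2 -4.25 ± 0.71, adjusted p = 0.00087), and the interaction was -4.09 ± 0.91 (adjusted p = 0.0153). Without WT HFD library 4 these were -4.62 (adjusted p = 2.12e-05) and -4.47 (adjusted p = 0.000578). Abcb4, which moves phospholipid into bile, rose 1.48-fold on HFD in HuMgat2, with 328.9 ± 13.9 CPM on HFD and 222.7 ± 20.7 CPM on chow (adjusted p = 0.00988), and on HFD its HuMgat2 level was 1.56-fold that of WT (adjusted p = 0.00467). That genotype difference was 0.64 on the log2 scale, and 0.49 without WT HFD library 4 (adjusted p = 0.00102).

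In WT, 1 transport gene rose and 4 fell on HFD, with a median of -0.20 against 0.03 for all genes. Of all genes, 8.37% were called higher and 6.74% lower. Slc10a2, the apical carrier known from ileum and bile ducts, rose 2.91-fold, with 48.0 ± 20.7 CPM on HFD and 16.5 ± 4.36 CPM on chow (adjusted p = 0.00201). Ephx1, an epoxide hydrolase also linked to bile acid uptake, fell 2.56-fold, with 167.4 ± 65.9 CPM on HFD and 428.4 ± 44.4 CPM on chow (adjusted p = 0.00181). Abcc4, an exporter of the blood side, fell 2.16-fold in WT (adjusted p = 0.0196; 0.0504 to 0.0535 without WT HFD library 1 or 3 or WT chow library 5), and its interaction was 1.88 ± 0.42 (adjusted p = 0.0155). On chow Abcc4 had 3.55 ± 1.1 CPM in HuMgat2 and 7.92 ± 1.89 CPM in WT (log2 -1.15, adjusted p = 0.119). The interaction also called Ephx1 (1.49 ± 0.34, adjusted p = 0.0184), which had 445.9 ± 33.1 CPM in HuMgat2 HFD and 407.1 ± 74.3 CPM in HuMgat2 chow. Without WT HFD library 4 the Ephx1 interaction was 1.23 (adjusted p = 0.00054) and the Abcc4 interaction was 2.12 (adjusted p = 0.00295).

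Of 11 tested sensing genes, 1 fell on HFD in HuMgat2, and 1 rose and 4 fell in WT, with median log2 changes of -0.09 and -0.39. Of all genes, 6.4% were called lower in HuMgat2, and 8.37% higher and 6.74% lower in WT. Hnf4a, a factor that drives many liver genes, fell in both, 1.4-fold in HuMgat2 (adjusted p = 0.0304) and 1.46-fold in WT (adjusted p = 0.0176). The HuMgat2 call was lost without HuMgat2 HFD library 10, 11 or 12 or chow library 14 or 16 (adjusted p of 0.0624 to 0.109), and the WT call without WT HFD library 3 or WT chow library 7 (0.0517 and 0.0589). The HuMgat2 call was also lost with no filter (adjusted p = 0.0651) and the WT call with only the 2 groups (adjusted p = 0.0525). Its levels were 553.3 ± 54.8 CPM in HuMgat2 HFD, 514.8 ± 77.1 CPM in WT HFD, 773.3 ± 111 CPM in HuMgat2 chow and 749.4 ± 85.9 CPM in WT chow. In WT, Klb, the co-receptor through which the intestinal hormone FGF15 acts on liver, fell 1.65-fold (adjusted p = 0.00554), and Nr5a2, a factor that activates Cyp7a1 and Cyp8b1, fell 1.33-fold (adjusted p = 0.0101). Fgf15 itself, known as an intestinal gene, had 0 counts in all 16 libraries. Without WT HFD library 4, the WT diet calls named here for Cyp39a1, Slc10a2, Ephx1, Abcc4, Hnf4a, Klb and Nr5a2 were all still made, at adjusted p of 1.3e-05 to 0.00987.

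**Figure D4:**
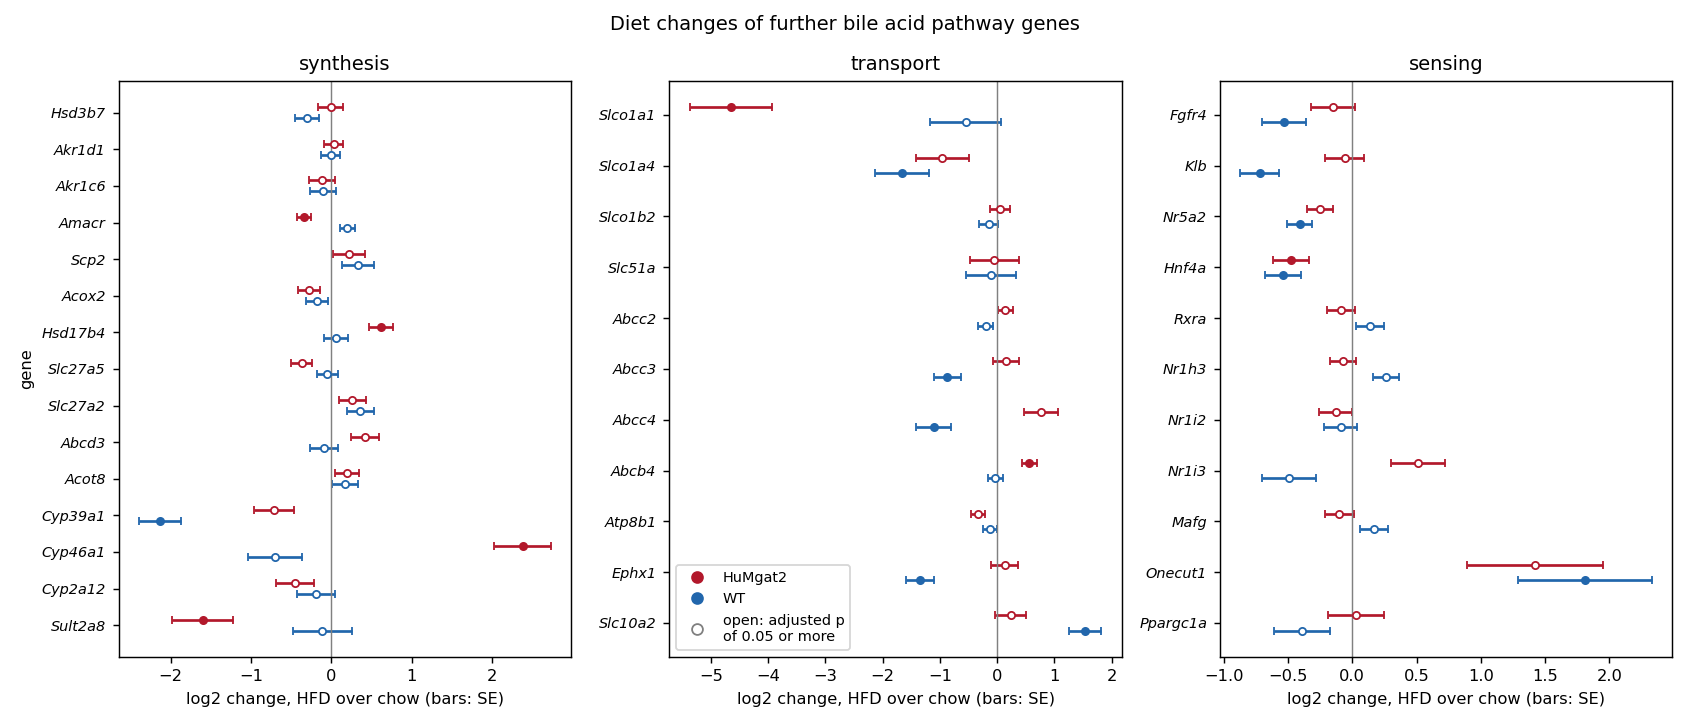
Log2 change between HFD and chow (horizontal axis, different ranges) of the further synthesis, transport and sensing genes tested, in HuMgat2 (red) and WT (blue), with standard errors; open symbols did not pass an adjusted p of 0.05. Slco1a1 is farthest from 0, at -4.65 in HuMgat2, and Cyp46a1 stands at 2.38.

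Markers of liver cell types also moved, and in whole tissue fewer cells of a type and less RNA per cell cannot be told apart. Of all genes, 7.56% were called higher and 6.4% lower on HFD in HuMgat2, and 8.37% and 6.74% in WT. In HuMgat2, 3 of 8 hepatocyte markers fell on HFD (Cps1 by a log2 change of -1.40, Tat by -1.51 and Ahsg by -0.61), with a median of -0.33 over the 8, against -0.53 over the 10 bile acid genes, and a summed level of 53579.6 to 67042.8 CPM on HFD and 57417.3 to 87902.7 CPM on chow, and 4 of 5 stellate cell markers rose, with 340.5 to 407.6 CPM on HFD and 177.4 to 286.5 CPM on chow. In WT, 0 of 8 hepatocyte markers fell with edgeR and 1 rose (Hpx; 0 without library 4), with a median log2 change of -0.03; 2 were lower at an unadjusted p below 0.05, DESeq2 called 2 lower and limma voom 1. Their summed level, of which Alb makes up the most (29701 CPM on average in WT HFD and 52780 CPM in WT chow; log2 -0.83, adjusted p = 0.153), was 43999.2 (library 4) to 60297.7 CPM on HFD, with 58690.3 CPM the next lowest, and 67912.8 to 80375.9 CPM on chow, and 5 of 6 macrophage markers rose, or 2 of 6 without library 4. The summed macrophage markers were 111.1 to 430.8 CPM in WT HFD and 73.0 to 122.2 CPM in WT chow. In HuMgat2, 0 of 6 macrophage markers were called higher on HFD (median log2 0.45), or 3 of 6 without WT HFD library 4. DESeq2 called 0 macrophage markers higher in HuMgat2 and 5 in WT, and limma voom called 2 and 1. Their summed level in HuMgat2 was 103.6 to 133.1 CPM on HFD and 83.0 to 116.4 CPM on chow. Between genotypes on HFD, 3 of 8 hepatocyte markers were called lower in HuMgat2 (Cps1 at -0.97, Tat at -0.90 and Apoa1 at -1.01), against 7.56% of all genes. Without being called, Trf, Ahsg and Hpx were lower, and Alb (0.46, adjusted p = 0.431) and Ttr (0.47, adjusted p = 0.134) were higher. The summed hepatocyte markers had a median of 57753.4 CPM in HuMgat2 HFD and 58842.3 CPM in WT HFD. The stellate cell markers called higher in HuMgat2 on HFD were Lrat, Dcn and Pdgfrb, against 7.21% of all genes. The interaction called Cps1 (-1.24) and Lrat (1.13), against 2.26% of all genes lower and 2.61% higher. No marker of hepatocytes, cholangiocytes, macrophages, stellate cells or endothelium was at 0 in a group. Summed markers of enterocytes were 40.3 to 50.5 CPM in HuMgat2 HFD, 11.0 to 64.2 CPM in WT HFD, 13.8 to 18.3 CPM in HuMgat2 chow and 11.8 to 16.8 CPM in WT chow, with Lct at 0 in HuMgat2 HFD. Nearly all of this was Fabp2, with means of 45.4, 48.3, 15.4 and 13.9 CPM in these groups. Vil1 had means of 0.14, 0.148, 0.182 and 0.376 CPM and did not rise on HFD. Summed markers of exocrine pancreas were at most 17.1 CPM and those of adipocytes at most 0.14 CPM, with Prss1 at 0 in every group. The part of these shifts in the changes of the bile acid genes was not tested.

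For 5 members the 3 genes with the most similar pattern were found by Pearson's r of log2 CPM over the 16 libraries, among 14108 genes with a mean of at least 1 CPM. The r is descriptive, since all genes share the 4 groups and the same libraries. Cyp8b1 was most like Ces2e (0.967), Acss3 (0.967) and Gpd1 (0.958); without WT HFD library 4 these were 0.877, 0.908 and 0.881. Cyp2c70 was most like Acvr2b (0.947), Gne (0.944) and Egfr (0.927). Cyp7b1 was most like Adh6-ps1 (0.929), Lifr (0.921) and Mup11 (0.918), the last of a family of near-identical genes whose counts are uncertain. Abcb11 was most like Cyp2c55 (0.968), Cyp2c29 (0.967) and Paics (0.951). Cyp7a1 was most like Sdccag8 (0.903), 1700086O06Rik (0.884) and C730036E19Rik (0.884).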

How the data were processed

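Total RNA of liver was depleted of ribosomal RNA and made into stranded libraries, per the labels' protocols. The deposited values are raw counts of read pairs per gene name, made with featureCounts 2.0.1 on the GRCm39 Ensembl 103 annotation with both ends required to map, per the file headers; the command shows no strand option, so overlapping antisense genes cannot be told apart. STAR 2.7 and DESeq2 1.26.0 are named in the submitters' processing notes. The 64 records stand for 16 libraries, 4 records each, and each library was used once.

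All 4 groups were fitted together with the edgeR 4.0.16 quasi-likelihood test (R 4.3.3; TMM scaling, filterByExpr, two-sided, Benjamini-Hochberg adjustment over 17318 genes, called at adjusted p below 0.05). The SE is the log2 change divided by the root of F, and 95% intervals are normal ones. Levels are CPM by TMM-scaled library size. The script was tested on simulated data. Members and lists were chosen with earlier results of these data known. All members are named; of each list, up to 3 called genes per comparison with the smallest adjusted p are named, and for 5 members the 3 genes most like them. The results were recomputed with DESeq2 1.42.0, with DESeq2 size factors, with 2 other filters, with a fit of only 2 groups, without 96 genes of mitochondria, ribosomal RNA or hemoglobin, with limma 3.58.1 voom with quality weights, and without each library in turn. The r without WT HFD library 4 was added after seeing the data.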

Additional observations from a re-analysis of the deposited data

Results flagged for a closer look

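Cyp2c70 in WT chow library 6 was far above the other 3 WT chow libraries, at 212.5 CPM against 155.4 to 159.7 CPM. Chance alone flags about 1 in 20 groups in this way. All 10 members were checked in all 4 groups and no other value was flagged, so this flag can arise by chance.

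The diet change of 2 genes differed between genotypes by the interaction test. For Cyp2c70 the diet change in HuMgat2 minus that in WT was -2.88 on the log2 scale, with every HuMgat2 HFD library below and every WT HFD library above the chow libraries of its own genotype. For Cyp27a1 it was -0.79, with a fall in HuMgat2 and a change in WT that did not pass.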

How the results depend on the processing

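Of 50 log2 changes (10 members in 5 comparisons), 29 kept their direction and their side of the threshold in all settings tried; the cause was not tested for the rest. Members called higher on HFD in HuMgat2 numbered 2 with no filter, 1 with only the 2 groups and 2 with limma voom (0 to 1 over the fits that left out 1 library). Members called lower on HFD in WT numbered 1 with no filter (1 to 2), 3 with limma voom, and 2 with only the 2 groups, where Nr0b2 was called and Baat was not. Between genotypes on HFD, 0 were called higher with only the 2 groups and 2 with voom (0 to 1), and 5 were called lower with voom. For the interaction, 0 to 1 were called higher and 1 to 3 lower when 1 library was left out. Of all genes, 2617 were called with diet in WT, 1452 with only the 2 groups and 3944 with voom (1673 to 2670, the fewest without WT chow library 5); between genotypes on HFD 2558, and 4323 with voom (1585 to 2711); on chow 88, 232 with DESeq2 and 135 with voom (53 to 204, the most without WT HFD library 4); and for the interaction 844, and 1391 with voom (529 to 1129). Changes that turned sign were all close to 0 and not called in any setting. With voom they were Slc10a1 with diet in WT (0.04), its interaction (-0.11), Nr0b2 between genotypes on HFD (-0.14) and Baat on chow (-0.01, also with a mean of at least 1 CPM). With 1 library left out, Slc10a1 ran from -0.23 to 0.09 with diet in HuMgat2, -0.27 to 0.03 with diet in WT, -0.28 to 0.01 between genotypes on HFD and -0.11 to 0.24 in the interaction. Nr1h4 ran from -0.13 to 0.03 with diet in WT, Nr0b2 from -0.33 to 0.22 between genotypes on HFD, and, between genotypes on chow, Cyp27a1 from -0.21 to 0.04, Baat from -0.03 to 0.04 and Abcb11 from -0.01 to 0.08. No paired analysis was possible because no library number occurs in more than 1 group. The 4 libraries a group and the 1 shallow, atypical WT HFD library limit the precision.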
